A study of Mus musculus with 16 samples.

Results

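The control neurons of this study were 4 libraries of total RNA from mouse hippocampal cultures that had received medium without human apoE, out of 16 libraries in the series. They were chosen by their treatment label alone, and no comparison was made with the other 12 libraries, which had received apoE2, apoE3 or apoE4 (4 libraries each). The neurons came from hippocampi of newborn wild-type CD1 pups and were treated with AraC, a drug that stops cell division, on day 3 *in vitro* (DIV). At 10 and again at 13 DIV the cultures received conditioned medium of immortalized *Apoe*-/- astrocytes, concentrated 10-fold, and RNA was taken at 17 DIV. The astrocytes had made this medium without serum and with a hydroxycholesterol, added by the study to raise apoE production. The libraries came from separate cultures, as the methods of the study describe. *Apoe*-/- therefore describes the astrocytes that made the medium, while the cultured cells carried their own mouse *Apoe* gene. This baseline is that of neurons given astrocyte-conditioned medium, and cultures without such medium were not analysed here.

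The hippocampus in culture holds mainly excitatory pyramidal and granule neurons, which release glutamate, and a smaller set of inhibitory interneurons, which release GABA. Astrocytes from the dissected tissue persist in such cultures to an extent that depends on how early cell division is blocked. Fast excitation runs through AMPA receptors, NMDA receptors admit calcium and act in plasticity, and GABA-A receptors are chloride channels whose effect on the cell depends on the chloride gradient. These receptors are assembled from several subunits, each with its own gene, and the subunits in use change as neurons mature.

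Levels are given as CPM, the counts of a gene per 1000000 counts of its library, scaled between libraries by trimmed mean of M values (TMM) factors and listed in the order of replicates 1 to 4. Where genes are compared with each other, the level was divided by the length of the gene's exons in kilobases (CPM per kb), since longer transcripts give more fragments. Values after ± are the SD over the 4 libraries (n = 4). A gene was said to lie above its neighbour where it did so in 4 of 4 libraries, while the highest or lowest gene of a list is that by the mean. An exact sign-flip test over 4 libraries cannot give a two-sided p below 0.125, so no p is given. Positions are those of mm10.

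The 4 libraries held 20438089, 24357315, 28482361 and 18569593 counts on genes, with a median of 22397702. At this depth 12820 of 48397 features reached 1 CPM in all 4 libraries, among them 11792 of 21193 protein-coding genes, and 18627 features had no read in any of the 4. A gene without a read could still be at up to 0.0317 CPM (3 counts over the 4 libraries together, for counting error only). Between 51.4 and 64.7% of the fragments were not assigned to a gene, the highest share in replicate 4 and the lowest in replicate 3. Between 9.55 and 12.6% were left out because they aligned to several places. No pair of libraries agreed within sampling noise, as 1 library sequenced again would. Each counted as a sample of its own because the study describes independent cultures, which these counts cannot show. Replicate 2 had the lowest and replicate 4 the highest levels of most glial genes, so the value in each library is given for the genes described in detail.

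Genes that mark neurons and genes that mark astrocytes were both among the more abundant transcripts of the control neurons. *Tubb3* (chr8:123411424-123422015), the neuronal class of beta-tubulin, was measured at 225, 488, 344 and 408 CPM. *Slc17a7* (chr7:45163949-45176142), the vesicular transporter that fills synaptic vesicles with glutamate, was at 802, 1037, 1119 and 517 CPM. *Gad1* (chr2:70553072-70602014), which makes GABA, was at 318, 285, 191 and 240.0 CPM. The highest library exceeded the lowest 2.17-fold for *Tubb3*, 2.16-fold for *Slc17a7* and 1.67-fold for *Gad1*, and *Slc17a7* was lowest in replicate 4. *Gfap* (chr11:102887336-102900912), the intermediate filament of astrocytes, was at 474, 189, 640.1 and 1287 CPM and so differed 6.80-fold between replicates 2 and 4. Per length, *Tubb3* was 1.07, 5.82, 1.21 and 0.716 times the level of *Gfap* in the 4 libraries, so that their order was not the same in all of them. Without replicate 2 the mean log2 ratio was -0.035. In bulk RNA, fewer cells of a type and less RNA per cell cannot be told apart, and none of these values is a share of cells.

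All 18 pan-neuronal genes were detected at 1 CPM or more in all 4 libraries, and their summed level was 7258, 9529, 10352 and 6597 CPM. By length the highest of them were *Uchl1* (218 ± 45.2 CPM per kb), *Nefl* (196 ± 97.7 CPM per kb), *Tubb3* (196 ± 59.5 CPM per kb) and *Snap25* (160.2 ± 63.8 CPM per kb), a ubiquitin hydrolase, a neurofilament, the neuronal tubulin and a protein of vesicle fusion. The order among these 4 was not the same in all libraries, and when the longest transcript set the length *Map2* (323 CPM per kb) was first, followed by *Uchl1* (302), *Snap25* (223) and *Eno2* (210.0), a neuronal enolase. *Map2*, which binds dendritic microtubules, had the largest fragment yield of the list at 1910.3, 2088, 2490.3 and 1595 CPM. *Rbfox3*, the gene of the nuclear antigen NeuN, was lower at 94.7, 109, 97.3 and 78.7 CPM, and *Elavl4* was the lowest of the list at 6.14 ± 2.64 CPM per kb. Exons that overlap another gene covered 32.8% of *Nefl*, so that its count is less certain.

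**Figure D1:**
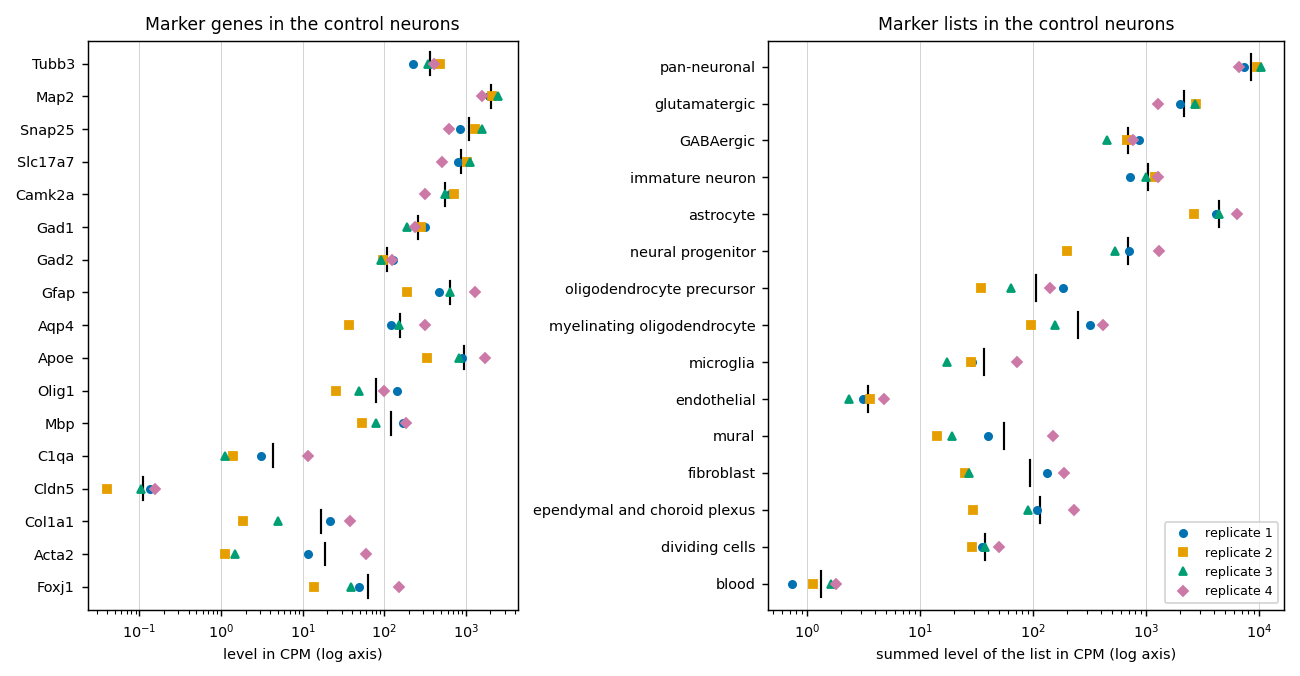
Levels of 17 marker genes (left, CPM) and summed levels of 15 marker lists (right, CPM) in the 4 control libraries, on log axes. Coloured points are the libraries and black bars their means. The pan-neuronal and astrocyte lists are highest, blood and endothelial lists lowest, and replicate 2 (squares) lies at the low end of most non-neuronal lists.

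The most abundant features were few and mostly not neuronal. Features above 1% of the counts on genes in a control library were *Lars2*, *mt-Rnr2*, *Rn18s-rs5* and *Rn7sk*. *Lars2* (chr9:123366927-123462666), the nuclear gene of the mitochondrial leucyl-tRNA synthetase, took 5.95, 4.85, 3.89 and 8.36% of the counts on genes. *mt-Rnr2* is the large mitochondrial ribosomal RNA and was at 39022, 30966, 35614 and 35213 CPM. *Rn18s-rs5*, annotated by its symbol as related to ribosomal RNA, was at 17443, 16478, 14158 and 29054 CPM, and *Rn7sk*, a small nuclear RNA that restrains transcription elongation, at 11753, 11578, 9885 and 12229 CPM. The libraries had been depleted of ribosomal RNA, and the part of leftover ribosomal fragments in these counts was not tested. *Lars2* and *Rn18s-rs5* were both highest in replicate 4 and lowest in replicate 3, the same libraries that had the highest and lowest share of unassigned fragments. The 20 most abundant features held 18.4, 15.5, 14.9 and 21.3% of the counts, and protein-coding genes 88.2 ± 1.34%.

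Per length, the genes that followed *Lars2* (5017 ± 1653 CPM per kb) and the mitochondrial *mt-Co1* (4423 ± 760.5 CPM per kb) were those of the cytoskeleton, protein synthesis, calcium binding and secretion. *Actb* (cytoplasmic actin) stood at 1214 ± 102 CPM per kb, *Eef1a1* (an elongation factor of translation) at 1044 ± 145 CPM per kb and *Tmsb4x* (which binds actin monomers) at 1042 ± 159 CPM per kb. *Calm2* and *Calm3*, which encode calmodulin, the main calcium sensor of the cytoplasm, were at 869 ± 277 CPM per kb and 760.4 ± 106 CPM per kb. *Cpe*, the carboxypeptidase that trims peptide hormones and neuropeptides, was at 849 ± 269 CPM per kb. *Tuba1a*, the alpha-tubulin of growing neurons, was at 741 ± 199 CPM per kb and *Gpm6a*, a neuronal membrane glycoprotein, at 566 ± 133 CPM per kb. Further genes among the 20 highest were *mt-Nd1*, *Aldoa*, *Psap*, *Nnat*, *Tubb2a*, *Hsp90ab1*, *Cox8a*, *Rplp1* and *Apoe*, between 445 and 646 CPM per kb. For comparison, the median of the 12629 protein-coding genes with a mean of at least 1 CPM was 5.47 CPM per kb.

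**Figure D2:**
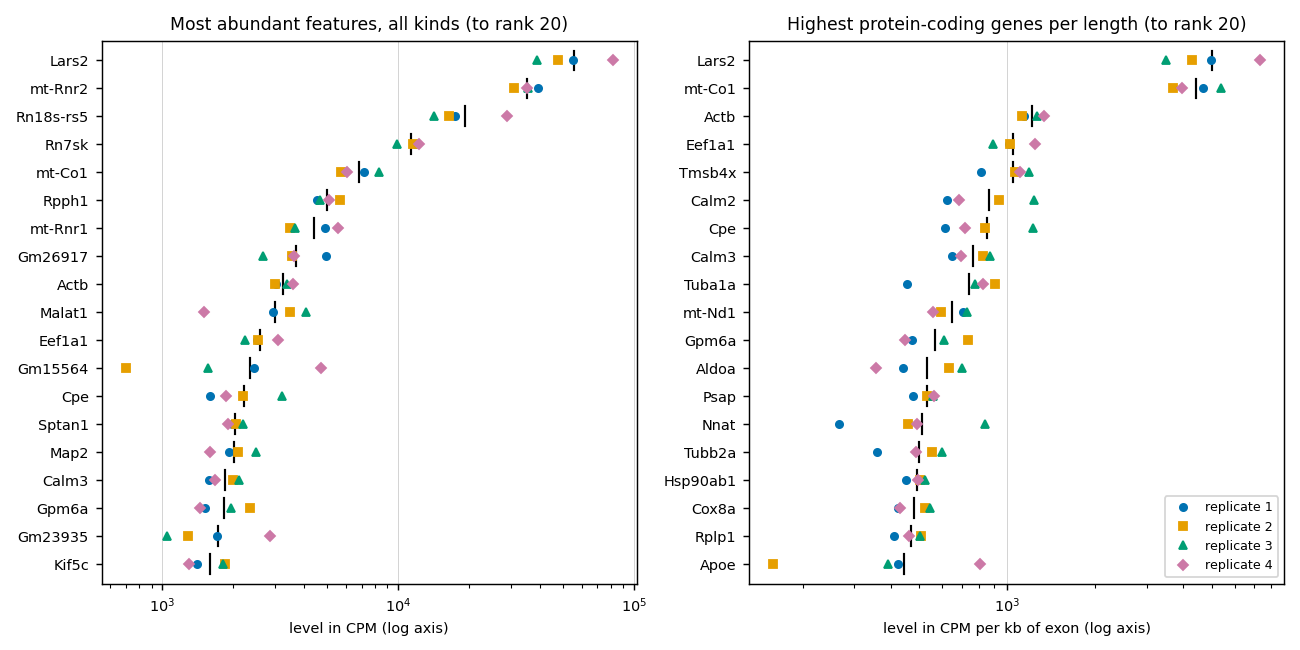
Features of any kind down to rank 20 by mean CPM (left, CPM) and protein-coding genes down to rank 20 by mean level per exon length (right, CPM per kb), on log axes, each with 1 gene left out. Points are the 4 control libraries and black bars their means. *Lars2* leads both panels.

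Among the 13 protein-coding genes of the mitochondrial genome the deposited counts were very uneven. *mt-Co1*, a core subunit of cytochrome oxidase, was at 7189, 5718, 8328 and 6099.9 CPM, whereas *mt-Co2* and *mt-Co3*, the other mitochondrial subunits of that enzyme, had means of 1.44 and 2.67 CPM. *mt-Atp6*, a subunit of ATP synthase, averaged 0.437 CPM. *mt-Nd3*, *mt-Nd4l* and *mt-Atp8* were below 1 CPM in every library as well. In all, 4 of the 13 genes averaged below 1 CPM and 9 above. Fragments that aligned to several places had been left out of the gene counts, and their part in these low values was not tested.

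The transmitter genes were those of glutamate and GABA neurons. Per length *Slc17a7* was 3.57, 5.15, 8.30 and 3.05 times *Gad1*, above it in 4 of 4 libraries, with the widest gap in replicate 3 and the narrowest in replicate 4. *Slc17a6*, the vesicular glutamate transporter typical of subcortical neurons, measured 12.2, 37.1, 15.3 and 24.8 CPM, and per length *Slc17a7* was 66.0, 28.0, 73.4 and 20.9 times as high. *Slc17a8*, found in a subset of interneurons and in serotonin neurons, averaged 1.05 ± 0.449 CPM. The excitatory list of 11 genes summed to 1989.6, 2739.5, 2694 and 1277 CPM, lowest in replicate 4. It included *Camk2a* at 643, 721, 556 and 318 CPM, the kinase subunit of excitatory synapses, and *Neurod6* at 109.6, 271, 263 and 89.6 CPM, a transcription factor of pyramidal neurons. *Neurod2* was at 61.5 ± 28.5 CPM, *Tbr1* at 17.6 ± 4.28 CPM and *Emx1* at 15.7 ± 1.46 CPM.

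The GABA list of 10 genes summed to 864, 681, 445 and 756 CPM. Of the 9 genes with a mean of at least 1 CPM, all 9 were lowest in replicate 3, which was the lowest library for 25.5% of the 14051 features at that level. *Gad1* and *Gad2*, both of which make GABA, stood at 33.9 ± 7.24 CPM per kb and 18.7 ± 3.13 CPM per kb, and *Gad1* was higher in 4 of 4 libraries. *Slc32a1*, the vesicular GABA transporter, was at 26.9, 19.5, 14.3 and 28.5 CPM, and 24.9% of its exons overlapped another gene. Of the transcription factors of the interneuron lineage, *Dlx1* averaged 23.0 ± 4.49 CPM and *Lhx6* 13.8 ± 6.46 CPM, while *Dlx2*, *Dlx5* and *Dlx6*, which act in interneuron precursors, averaged 0.702, 1.07 and 1.17 CPM. *Lhx6*, a factor of interneurons from the medial ganglionic eminence, was at 18.4, 13.99, 4.64 and 18.3 CPM, and differed most between replicates 1 and 3.

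Markers of several interneuron classes were present together. Per length, *Cck* (116 ± 78.6 CPM per kb) and *Calb2* (106 ± 65.1 CPM per kb) led, a peptide precursor and the calcium-binding protein calretinin. *Npy* (63.1 ± 29.9 CPM per kb), *Cnr1* (56.3 ± 16.02 CPM per kb) and *Sst* (36.9 ± 13.3 CPM per kb) followed, and *Pvalb*, the parvalbumin of fast-spiking interneurons, was at 23.5 ± 20.3 CPM per kb. Neighbours in this order changed places between libraries. *Cck*, which is made by some interneurons and by pyramidal cells, was at 60.3, 207, 268 and 70.1 CPM. *Calb2* was at 155, 334, 60.4 and 189.6 CPM, highest in replicate 2 and lowest in replicate 3. *Pvalb* was at 23.8, 11.1, 8.51 and 54.6 CPM, highest in replicate 4. *Sst* at 24.5, 34.6, 13.9 and 33.4 CPM and *Vip* at 12.4, 22.3, 20.9 and 7.64 CPM were within a range of about 3-fold. *Reln*, the secreted glycoprotein of Cajal-Retzius cells and some interneurons, was at 125, 82.9, 65.1 and 141 CPM, and *Nos1*, which makes nitric oxide, at 33.4, 71.0, 11.5 and 35.6 CPM. *Nkx2-1*, a factor of medial eminence precursors, averaged 0.198 CPM and *Sncg* 0.543 CPM.

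Most genes that define other transmitter types were at or near 0. *Chat*, the enzyme that makes acetylcholine, averaged 0.0542 CPM with no read in replicates 3 and 4, and the transporters *Slc18a3* and *Slc5a7* averaged 0.536 and 0.0977 CPM. *Ache*, which breaks acetylcholine down and is made well beyond cholinergic cells, was the exception of that list at 59.1, 127, 116 and 45.9 CPM. *Th*, the first enzyme of catecholamine synthesis, averaged 0.142 CPM, *Slc6a3* 0.844, *Dbh* 0.892 and *Slc6a2* 0.299. *Slc18a2*, the vesicular monoamine transporter, was the one gene of that list above 1 CPM in all 4 libraries, at 5.13, 5.91, 7.88 and 5.39 CPM. *Tph2*, which makes serotonin in neurons, was at 0.999, 1.01, 1.46 and 1.78 CPM. The serotonin transporter *Slc6a4* averaged 0.264 CPM, and *Fev*, a factor of serotonin neurons, had no read in any library. *Slc6a5*, the glycine transporter of glycinergic neurons, averaged 0.122 CPM and *Hdc*, which makes histamine, 2.24 ± 2.61 CPM. *Slc6a9*, a glycine transporter that glia and glutamate neurons also use, was higher, at 10.7, 8.76, 6.80 and 11.7 CPM, and 30.2% of its exons overlapped another gene.

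**Figure D3:**
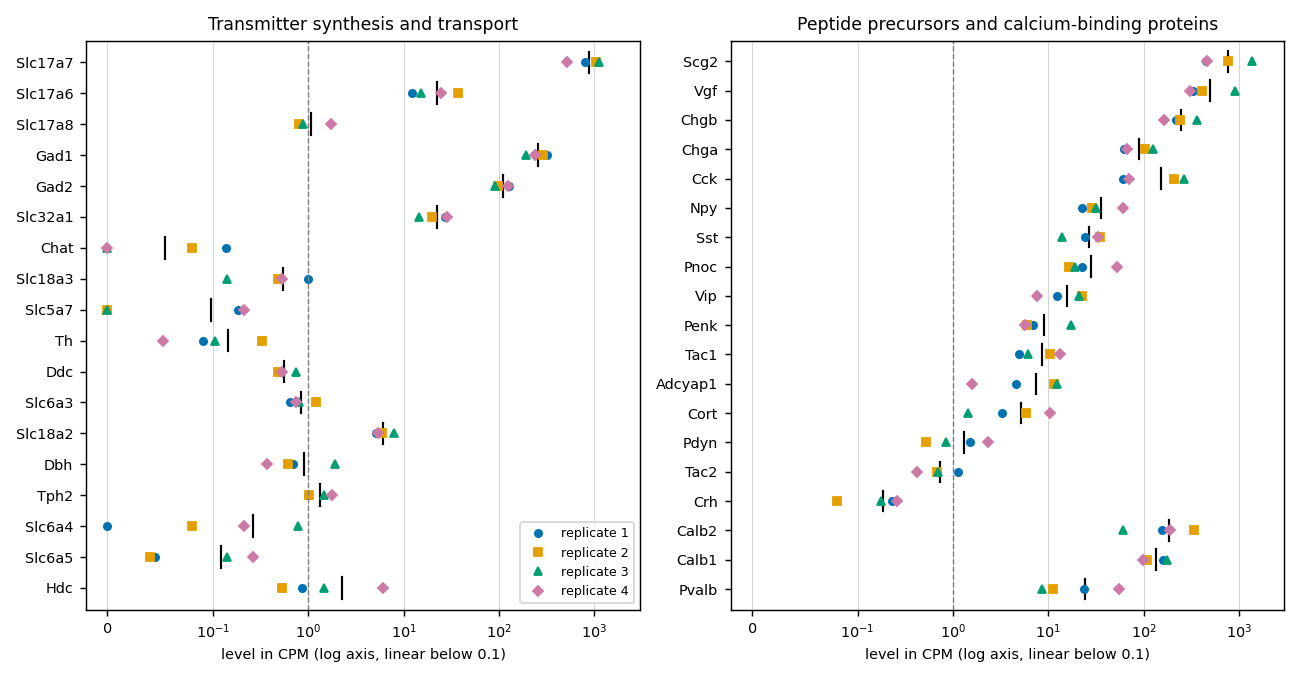
Levels of genes for transmitter synthesis and transport (left) and of peptide precursors and calcium-binding proteins (right), in CPM on a log axis that is linear below 0.1. Points are the 4 control libraries, black bars their means, and the dashed line marks 1 CPM. Most glutamate and GABA genes lie well to the right of that line, and most cholinergic, monoamine and glycine genes to its left.

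Among the peptide precursors *Scg2*, a granin of dense-core vesicles, had the highest level per length at 306 ± 174 CPM per kb. *Vgf* (166 ± 96.7 CPM per kb), *Cck* (116 ± 78.6 CPM per kb), *Chgb* (90.7 ± 31.1 CPM per kb), *Npy* (63.1 ± 29.9 CPM per kb), *Sst* (36.9 ± 13.3 CPM per kb) and *Chga* (32.8 ± 10.98 CPM per kb) followed, in an order that was not the same in all libraries and in which *Cck* was above *Vgf* and *Chga* above *Sst* when the longest transcript set the length. *Scg2* was at 456, 766, 1386 and 465 CPM and *Vgf* at 334, 408, 919 and 309.6 CPM. Both were highest in replicate 3, by far in the case of *Vgf*, and replicates 1 and 4 were close to each other. *Penk* (enkephalin) was at 6.90, 5.99, 17.4 and 5.65 CPM and *Adcyap1* at 4.59, 11.6, 12.3 and 1.57 CPM, while *Pdyn* (dynorphin), *Tac2* and *Crh* averaged 1.30, 0.734 and 0.186 CPM. *Pnoc*, the nociceptin precursor, was at 22.4, 16.6, 19.2 and 53.0 CPM and *Cort* at 3.27, 5.87, 1.43 and 10.4 CPM, both highest in replicate 4.

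Genes that distinguish the subfields of the hippocampus were all present, with all 14 of the list at 1 CPM or more in every library. *Prox1*, a transcription factor of dentate granule neurons, was at 129, 38.6, 64.9 and 95.4 CPM. *Wfs1*, which marks CA1 neurons, was at 36.1, 83.9, 29.5 and 42.7 CPM, and per length *Prox1* was 1.61, 0.208, 0.992 and 1.01 times *Wfs1*. Replicate 2 stood apart, with the lowest *Prox1* and the highest *Wfs1*, and without it the mean log2 ratio turned from -0.40 to 0.23. Over the whole list, 5 of the 14 genes were highest and 4 lowest in replicate 2, against 26.0 and 26.3% of all features with a mean of at least 1 CPM. Other genes of the dentate gyrus were *Dock10* (161, 42.1, 75.1 and 75.3 CPM), which was also lowest in replicate 2, and *Calb1* (158, 107, 176 and 97.4 CPM), which was not. *Fibcd1* (7.77, 45.7, 18.9 and 10.7 CPM) and *Mpped1* (15.1, 70.2, 22.5 and 26.6 CPM) of the CA1 field were highest in replicate 2. Of genes linked to CA3 and CA2, *Bok* was at 14.8, 15.9, 51.4 and 16.6 CPM and *Pcp4* at 28.4, 20.9, 57.2 and 26.2 CPM, both highest in replicate 3, and *Amigo2* at 51.7, 33.9, 47.1 and 39.0 CPM varied less. *Zbtb20*, needed for hippocampal identity, was the highest of the list in CPM at 718, 549.9, 502 and 467 CPM.

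Genes of other brain regions were low. *Hoxc8* had no read, *Hoxb5*, *Sim1* and *Barhl1* were below 0.5 CPM in every library, and *Foxp2*, *Tcf7l2*, *Gbx2*, *Otx2* and *En2* averaged 1.04, 0.717, 0.352, 1.29 and 1.79 CPM. The highest was *Drd1*, a dopamine receptor gene of striatal neurons that some hippocampal granule neurons also use, at 14.2, 9.69, 10.6 and 21.1 CPM.

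The astrocyte list of 16 genes summed to 4162, 2647, 4385 and 6369.9 CPM. Of the 15 genes with a mean of at least 1 CPM, 13 were lowest in replicate 2 and 12 highest in replicate 4, while over all features at that level these libraries were lowest for 26.3% and highest for 36.0%. *Apoe* (chr7:19696109-19699188), the lipid carrier of the brain, had the highest mean of the list per length at 445 ± 269 CPM per kb and ranked 20th among protein-coding genes, but in replicate 2 it was below *Sparcl1* (158 against 218 CPM per kb). It was measured at 906, 339, 833 and 1728 CPM, with replicate 2 lowest and replicate 4 highest as for *Gfap*, and it was 3.77, 3.53, 2.57 and 2.65 times *Gfap* per length. *Aqp4*, the water channel of astrocyte endfeet, was at 122, 37.4, 150.0 and 320.2 CPM. *Clu*, another apolipoprotein of astrocytes, was at 231, 87.2, 174 and 463 CPM and *Aldoc* at 335, 131, 273 and 453 CPM. *Slc1a2*, the main glutamate transporter, behaved differently at 813, 888, 1089 and 593 CPM, lowest in replicate 4 and highest in replicate 3. *Sparcl1*, a secreted protein of astrocytes and neurons, was nearly even at 575, 639, 680.1 and 684 CPM. *Gjb6*, a gap junction gene of mature astrocytes, averaged 0.0898 CPM although *Gja1* was at 38.2, 10.1, 23.1 and 84.1 CPM.

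The progenitor list summed to 707, 199, 533 and 1307 CPM and was carried by *Vim* (546, 146, 406 and 1066 CPM) and *Nes* (134, 39.4, 104 and 191 CPM), intermediate filaments shared by progenitors and astrocytes. *Sox2*, a factor of both, was at 20.7, 9.61, 17.8 and 40.3 CPM. *Eomes*, which marks intermediate progenitors, was nearly absent at 0.182 CPM on average. Of the cell-cycle genes, *Pcna* and *Mcm2*, which act in DNA replication, were the highest per length and stood at 16.7, 15.3, 18.9 and 22.1 CPM and 8.22, 5.87, 7.57 and 9.16 CPM. *Mki67* was at 6.27, 2.94, 4.46 and 7.27 CPM and *Top2a* at 2.18, 2.45, 4.57 and 7.43 CPM, whereas *Cdk1*, *Ccnb1*, *Aurkb* and *Birc5* averaged between 0.336 and 0.780 CPM. The list of 8 cell-cycle genes summed to 35.4, 28.6, 37.5 and 49.4 CPM, highest in replicate 4.

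Oligodendrocyte genes were present at lower levels and varied several-fold. *Olig1* and *Olig2*, factors of the lineage, were at 143, 25.8, 48.9 and 98.9 CPM and 29.8, 5.03, 10.9 and 29.6 CPM. *Pdgfra* and *Sox10*, which define precursors, averaged 0.921 and 0.743 CPM. The myelin gene *Mbp* was at 168, 54.1, 78.8 and 185 CPM and had the highest level of the myelin list per length at 14.4 ± 7.66 CPM per kb. *Mobp*, another myelin gene, was at 24.3, 3.66, 5.75 and 30.0 CPM, and *Mog*, *Mag* and *Opalin* averaged 2.95, 6.69 and 0.699 CPM. The precursor list summed to 184, 34.1, 64.1 and 139 CPM and the myelin list to 319.7, 95.2, 155 and 416 CPM, both lowest in replicate 2.

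Markers of other cell types were also detected, at levels that differed between types. The 12 microglial genes summed to 28.4, 27.9, 17.2 and 72.4 CPM, with *C1qa* of the complement system at 3.09, 1.41, 1.12 and 11.7 CPM, *Cx3cr1* at 0.636, 0.603, 0.802 and 3.03 CPM and *Tmem119* at a mean of 0.391 CPM. The fibroblast list summed to 133, 24.7, 27.2 and 188 CPM, with the collagen genes *Col1a1*, *Col1a2* and *Col3a1* at 21.9, 1.85, 4.95 and 38.4 CPM, 36.5, 3.42, 5.02 and 44.4 CPM and 32.5, 3.70, 4.81 and 39.6 CPM. The mural list summed to 39.6, 13.99, 19.04 and 149 CPM, with the contractile genes *Acta2* (11.6, 1.13, 1.499 and 60.1 CPM) and *Tagln* (16.3, 2.45, 4.18 and 76.9 CPM) making up most of it in replicates 1 and 4 only. *Myh11* and *Des*, which define smooth muscle, were at means of 0.176 and 0.0101 CPM, and 67.9% of the exons of *Tagln* overlapped another gene. *Foxj1*, the factor of ciliated ependymal cells, was at 48.7, 13.9, 39.2 and 152 CPM, and *Ttr*, which is made by the choroid plexus, at 53.8, 11.7, 44.0 and 45.2 CPM. Endothelial genes summed to at most 4.8 CPM, with *Cldn5* at 0.110 CPM on average, and blood genes to at most 1.8 CPM. Microglial, fibroblast, mural and ependymal totals were all highest in replicate 4.

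The AMPA receptor genes were measured in full, and the GluA1 and GluA2 subunits made up most of them. *Gria1* was at 126, 149, 130.4 and 105 CPM per kb and *Gria2* at 63.0, 84.6, 90.6 and 52.5 CPM per kb. *Gria1* was 1.99, 1.77, 1.44 and 2.01 times *Gria2*, the subunit that keeps calcium out of the channel, and was above it in 4 of 4 libraries. *Gria1* made up 57.5 ± 2.57% of the family per length, *Gria2* 32.3 ± 3.70%, *Gria4* 6.06 ± 1.67% and *Gria3* 4.21 ± 0.318%. *Gria4* was above *Gria3* in 4 of 4 libraries, but not when the longest transcript set the length. In raw CPM *Gria2* was the higher gene at 980.1, 1315, 1408 and 816 CPM against 759.8, 903, 788 and 637 CPM for *Gria1*, since its exons are longer.

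Auxiliary subunits set the trafficking and kinetics of AMPA receptors. *Cnih2*, a cornichon protein, was at 186 ± 41.4 CPM per kb and made up 67.3 ± 3.41% of the 11 auxiliary genes. *Cacng8* (9.36 ± 1.04%), the TARP typical of hippocampus, and *Cnih3* (7.59 ± 1.70%) came next, in an order that held in 3 of 4 libraries. *Cacng2* (stargazin) was at 27.2, 30.4, 29.0 and 25.5 CPM, and *Cacng3* and *Gsg1l* averaged 6.35 ± 1.70 CPM and 5.50 ± 1.41 CPM. Per length *Gsg1l* was below *Cacng3* in 4 of 4 libraries, whereas *Cacng3* was below *Cacng4* in 2 of 4. *Cnih2* itself was at 209.9, 283, 321 and 206 CPM.

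Over all exons, NMDA receptor genes were led by *Grin2b*, the GluN2B subunit that dominates early in development, at 28.4, 26.5, 26.8 and 18.1 CPM per kb. *Grin2a*, the subunit that rises with maturation, was at 16.4, 17.9, 22.6 and 11.3 CPM per kb, and *Grin1*, the obligatory subunit, at 15.6, 15.7, 19.8 and 11.9 CPM per kb. *Grin2b* was 1.73, 1.48, 1.18 and 1.61 times *Grin2a*, in 4 of 4 libraries, and in 3 of 4 when the longest transcript set the length. *Grin2a* and *Grin1* did not differ beyond their spread (1.06, 1.14, 1.15 and 0.946 times), and their order turned with the longest transcript. With that length *Grin1* led the family by the mean, since log2 of *Grin2a* over *Grin1* was -0.79 and of *Grin2b* over *Grin2a* only 0.33. Over all exons *Grin2b*, *Grin2a* and *Grin1* made up 41.5 ± 3.13%, 27.9 ± 2.72% and 26.1 ± 1.83% of the family. *Grin3a* was at 17.5, 49.9, 17.2 and 15.02 CPM, highest in replicate 2. *Grin2d*, *Grin2c* and *Grin3b*, typical of interneurons, cerebellum and motor neurons, averaged 2.48, 0.738 and 0.309 CPM.

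Among kainate receptor genes the high-affinity subunits led. *Grik5* made up 33.7 ± 5.30% of the list per length and *Grik4*, typical of CA3, 19.3 ± 1.35%, and the auxiliary *Neto2* 19.6 ± 3.13%. *Grik2* was at 91.4, 83.2, 79.8 and 57.7 CPM and made up 11.9 ± 1.46%. *Grik3* varied most at 19.7, 13.8, 7.04 and 36.7 CPM, with *Grik1* (15.6, 10.3, 7.32 and 18.4 CPM) also highest in replicate 4 and lowest in replicate 3. *Neto1* was at 31.3, 26.4, 36.1 and 19.7 CPM. Of the delta receptors *Grid1* was at 99.9, 126, 112 and 75.5 CPM and made up 98.7 ± 0.717% of their summed level per length.

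Metabotropic glutamate receptors were led by *Grm5*, a postsynaptic receptor of group I, at 420.3, 607, 466 and 363 CPM, which made up 63.4 ± 2.47% of the 8 genes per length. *Grm7*, a presynaptic receptor, was at 80.4, 102, 122 and 65.0 CPM and made up 21.9 ± 3.58%. *Grm2*, *Grm3*, *Grm4* and *Grm8* averaged 11.1, 3.99, 7.39 and 2.19 CPM, and *Grm6* of retinal bipolar cells had no read.

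**Figure D4:**
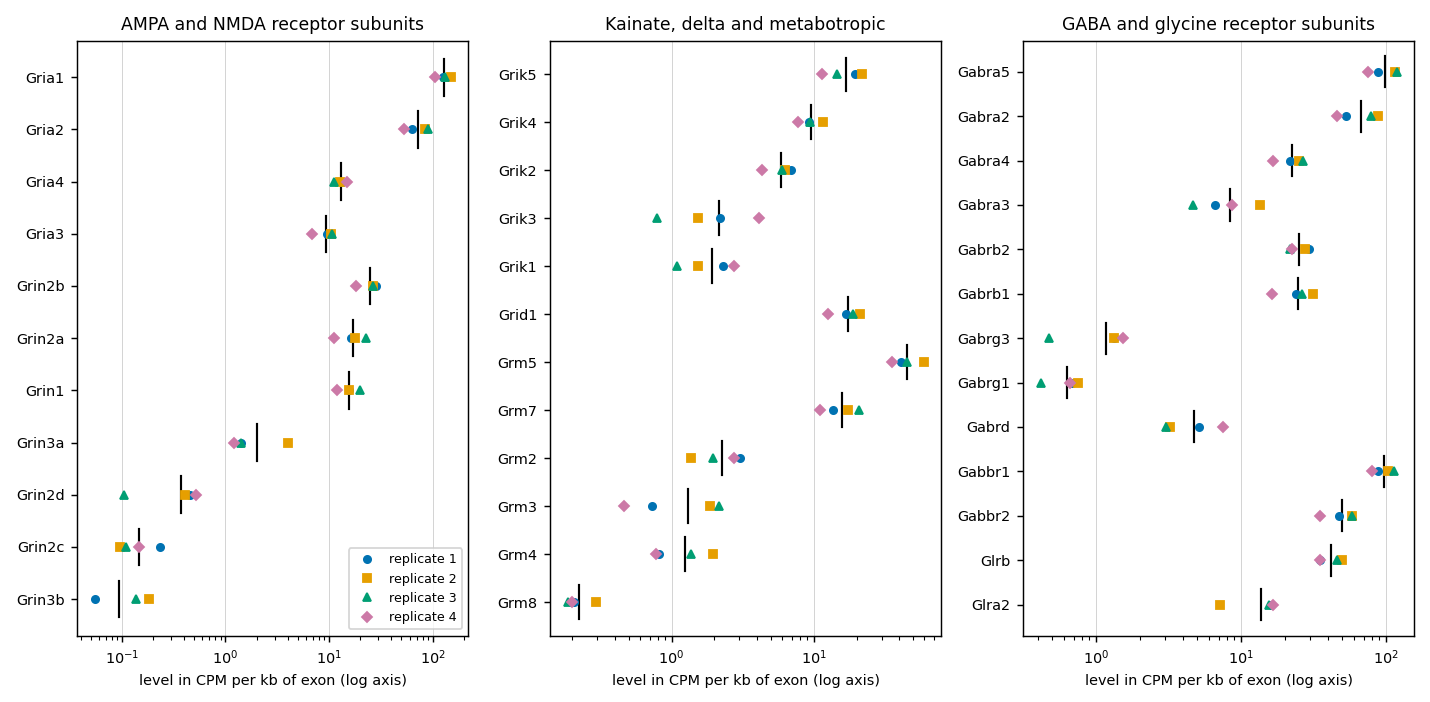
Levels of glutamate, GABA and glycine receptor genes per exon length (CPM per kb, log axes). Points are the 4 control libraries and black bars their means. *Gria1*, *Grin2b*, *Grm5* and *Gabra5* lead their groups by this length, and replicate 4 (diamonds) lies lowest for most of the abundant subunits.

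The GABA-A receptor list of 19 genes was led by *Gabra5* (99.1 ± 20.8 CPM per kb), the alpha subunit that is abundant in hippocampus and sits largely outside synapses. Per length *Gabra5* was 1.64, 1.30, 1.49 and 1.64 times *Gabra2*, above it in 4 of 4 libraries. *Gabra5* made up 25.9 ± 0.807% of the family and *Gabra2* 17.2 ± 2.18%. *Gabra2*, an alpha subunit of synaptic receptors, was at 407, 676, 606 and 352 CPM, lowest in replicate 4. The beta subunits *Gabrb2* and *Gabrb1* and the alpha subunit *Gabra4* were at 25.3 ± 3.77 CPM per kb, 24.6 ± 6.28 CPM per kb and 22.6 ± 4.49 CPM per kb, and their order was not stable between libraries. *Gabra3*, another alpha subunit, was at 26.0, 52.8, 18.4 and 33.9 CPM, highest in replicate 2. *Gabrd*, the delta subunit of extrasynaptic receptors, was at 14.7, 9.25, 8.75 and 21.4 CPM. *Gabra6* of cerebellar granule cells was at 0.0341 CPM, and *Gabrp* and *Gabrr3* had no read. *Gabrg3* was at 15.9, 15.8, 5.61 and 18.3 CPM, lowest in replicate 3.

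GABA-B receptors need both of their subunits. *Gabbr1*, which binds GABA, was at 88.5, 104, 113 and 80.3 CPM per kb and *Gabbr2*, which couples to the G protein, at 47.3, 58.1, 58.7 and 35.2 CPM per kb. *Gabbr1* was thus 1.87, 1.79, 1.93 and 2.28 times *Gabbr2*. Of the glycine receptor genes, *Glrb*, the beta subunit that gephyrin anchors, was at 164, 229.8, 215 and 164 CPM. *Glra2*, the alpha subunit of immature neurons, was at 50.9, 22.4, 48.9 and 52.1 CPM, lowest in replicate 2. *Glra1*, the alpha subunit of adult spinal cord, averaged 0.0523 CPM, and *Glra3* and *Glra4* 1.02 and 0.137 CPM.

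Receptors for acetylcholine were present although the genes of acetylcholine synthesis were near 0. Among 16 nicotinic genes *Chrna7* and *Chrnb2* made up 43.4 ± 5.26% and 35.3 ± 4.99% per length, at 52.4, 73.9, 88.4 and 51.0 CPM and 104, 97.9, 99.0 and 90.0 CPM, and their order held in 3 of 4 libraries. *Chrna4*, the partner of the beta2 subunit, was at 19.7, 13.9, 5.37 and 19.2 CPM. *Chrna1*, the alpha subunit of muscle, was at 2.09, 5.99, 31.1 and 1.41 CPM, with replicate 3 far above the rest. Of the muscarinic receptors *Chrm1* was at 163, 162, 167 and 86.1 CPM, *Chrm3* at 41.5, 37.2, 28.3 and 55.2 CPM and *Chrm4* at 16.5, 21.6, 18.8 and 14.8 CPM. *Chrm1* was lowest in replicate 4, in which *Chrm3* was highest. *Chrm2* and *Chrm5* averaged 2.20 and 0.764 CPM.

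Of the monoamine receptors *Htr1a*, a serotonin receptor that inhibits pyramidal neurons, was at 32.2, 70.4, 18.4 and 29.2 CPM, highest in replicate 2. *Htr2c* was at 19.5, 19.5, 35.8 and 8.21 CPM and *Htr4*, which raises cAMP, at 19.03, 10.7, 25.9 and 12.3 CPM. *Drd1* made up 90.2 ± 6.19% of the dopamine receptor list, with *Drd2* at 0.397 and *Drd3* at 0.00872 CPM on average. Of the adrenergic receptors *Adra2c* and *Adra2a* had the highest means per length, at 5.31 ± 1.201 CPM per kb and 4.15 ± 1.15 CPM per kb, and each was above the next gene of the list in 3 of 4 libraries. The beta receptor gene *Adrb1* was at 7.36, 7.52, 6.28 and 9.42 CPM.

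Among receptors for other modulators, *Cnr1*, the cannabinoid receptor of presynaptic terminals, was the highest in CPM at 299, 512, 351 and 289 CPM, and *Cnr2* averaged 0.189 CPM. *Adora1*, the inhibitory adenosine receptor, was at 98.2, 161, 149.6 and 108 CPM and made up 75.1 ± 6.69% of the adenosine and P2X list. *Adora2a* averaged 0.410 CPM. *Oprl1*, the nociceptin receptor, was at 35.3, 74.1, 40.3 and 33.5 CPM, highest in replicate 2, whereas the mu and kappa opioid receptors *Oprm1* and *Oprk1* averaged 0.0541 and 0.0664 CPM. *Oprd1* was at 3.56 ± 1.26 CPM.

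Lipoprotein receptors of neurons, several of which bind apoE, were all detected, as were most receptors of trophic factors. Of the 8 lipoprotein receptors, *Sorl1* and *Lrp1* were highest per length at 23.3 ± 9.96 CPM per kb and 21.2 ± 3.89 CPM per kb, and their order changed between libraries. *Sorl1*, a sorting receptor, was at 239, 263, 412 and 139.5 CPM, highest in replicate 3 and lowest in replicate 4. *Lrp1*, which takes up apoE lipoproteins in neurons and glia, was at 474, 326, 329.5 and 376 CPM. *Vldlr* and *Lrp8*, which also receive reelin, were at 178, 173, 129 and 161 CPM and 76.2, 96.3, 143 and 82.9 CPM. *Lrp2*, a receptor of absorptive epithelia, was at 12.7, 3.54, 3.14 and 17.997 CPM, *Lrp4* at 10.2, 5.43, 11.5 and 15.7 CPM and *Lrp1b* at 139, 78.4, 127 and 76.6 CPM.

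*Ntrk2*, the receptor of BDNF, was at 514, 420.2, 539 and 727 CPM and made up 44.2 ± 4.29% of the 8 trophic receptors. Per length it was 2.505, 2.33, 2.93 and 5.42 times *Ntrk3*. *Ntrk3*, the receptor of neurotrophin-3, was at 321, 282, 288 and 209.5 CPM, lowest in replicate 4. Gene counts do not separate the isoforms of *Ntrk2*, which differ between neurons and astrocytes. *Ngfr* was at 6.54, 7.48, 7.60 and 28.9 CPM and *Egfr* at 47.0, 13.7, 16.1 and 37.0 CPM, and *Fgfr1*, *Insr* and *Igf1r* at 145 ± 21.6 CPM, 52.5 ± 5.79 CPM and 26.5 ± 3.50 CPM.

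Several genes bear on how mature the cultures were. *Slc12a5*, the transporter that moves chloride out of mature neurons, was at 382, 398, 374 and 277 CPM. *Slc12a2*, which moves chloride in, was at 49.5, 32.2, 36.4 and 46.6 CPM, and per length *Slc12a5* was 11.3, 18.1, 15.1 and 8.71 times *Slc12a2*. Genes of young neurons were present alongside: *Gap43* of growing axons was at 204, 409.7, 423 and 373 CPM, *Tubb2b* at 286, 519.9, 399 and 520.5 CPM and *Dcx*, which marks migrating neurons, at 86.5, 89.0, 48.0 and 133 CPM. *Sox11* was at 46.0, 82.0, 45.6 and 85.7 CPM and *Stmn1* at 30.6, 42.3, 16.9 and 74.9 CPM. Of the 8 genes of immature neurons, 7 were highest in replicate 4, which was the highest library for 36.0% of all features with a mean of at least 1 CPM.

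Most of the genes listed for postsynaptic scaffolds and vesicle release were lowest in replicate 4. All 14 postsynaptic scaffold genes were lowest there, and replicate 4 was the lowest library for 26.9% of features. Their sum was 2608, 2998, 3048 and 1869.5 CPM. *Dlg4*, the gene of PSD-95, was at 348, 370.4, 401 and 253 CPM and *Shank3* at 231, 209, 211 and 185 CPM. *Gphn*, the gephyrin of inhibitory synapses, was at 109, 139, 155 and 96.7 CPM. *Homer1*, whose short form is made on neuronal activity, differed most of the 14 at 110.4, 195, 429 and 83.7 CPM, highest in replicate 3. Of 16 genes of vesicle release, 13 were lowest in replicate 4, among them *Snap25* (855, 1295, 1583 and 618 CPM), *Syt1* (654, 934, 903 and 451 CPM) and *Bsn* (405, 378, 331 and 198 CPM). *Cplx1* (292, 273, 291 and 328 CPM) was an exception and was highest there. The fast calcium sensor *Syt2* was low at 15.1, 8.72, 3.35 and 7.12 CPM, and *Vamp1* was at 32.4, 49.1, 104 and 22.0 CPM. In the same library the astrocyte list was at 6370 CPM, against 2647 to 4385 CPM in the others, and the part of these glial counts in the lower synaptic values was not tested.

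Immediate early genes, which neurons switch on after activity without new protein synthesis, set replicate 3 apart. Of the 16 genes of the list, 15 were highest in replicate 3, which was the highest library for 22.8% of features with a mean of at least 1 CPM. Their sum was 679.6, 606, 1225 and 564 CPM. *Bdnf*, the neurotrophin, was at 189, 165, 472 and 154 CPM. It had the highest mean of the list per length at 39.4 ± 24.5 CPM per kb, but was above *Junb* (34.7 ± 7.13 CPM per kb) in 1 of 4 libraries. *Arc*, a regulator of AMPA receptor endocytosis, was at 45.1, 40.7, 131 and 17.997 CPM. *Fos* was at 33.1, 25.2, 70.8 and 34.6 CPM and *Npas4*, a factor that answers to calcium entry in neurons, at 30.7, 21.1, 38.0 and 19.8 CPM. Replicates 1, 2 and 4 were closer to each other than to replicate 3 for *Bdnf*, *Arc* and *Fos*. *Jun* was the exception of the list at 103, 82.3, 50.1 and 105 CPM, lowest in replicate 3. The peptide precursors *Vgf* and *Scg2* and the scaffold gene *Homer1*, which are also known to follow activity, were highest in the same library. Of the 15 peptide precursors with a mean of at least 1 CPM, 7 were highest in replicate 3 and 6 in replicate 4, which was the highest library for 36.0% of features.

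Many of these genes are switched on through CREB, a factor that binds the letters TGACG or the full palindrome around them. Promoters from 250 bases before to 50 bases after the start were taken from a set made from RefSeq (GRCm38.p6). In the set used here, 12 of the 16 genes had an entry. The letters TGACG, on either strand, were found in 12 of 22 promoters of these genes and in 20.8% of 32851 promoters in the table. Genes with several promoters had more chances to hold it: at least 1 match was present for 10 of the 12 genes, and for 23.05% of all genes in the table. The promoters compared were not matched for base composition, and its part in these shares was not tested. The promoters shown were chosen for holding a match, from genes highest in replicate 3 with a single promoter in the table: they are the 3 of these with the largest ratio of replicate 3 to the median of the other libraries (3.39-fold for *Nr4a2*, 2.84-fold for *Nr4a1* and 2.70-fold for *Fosb*). *Arc* and *Bdnf* also had ratios in this range but did not meet these conditions. Capitals mark TGACG, or CGTCA where the match is on the other strand, and a match is only a match of letters.
Nr4a2, chr2:57123954-57124253, minus strand: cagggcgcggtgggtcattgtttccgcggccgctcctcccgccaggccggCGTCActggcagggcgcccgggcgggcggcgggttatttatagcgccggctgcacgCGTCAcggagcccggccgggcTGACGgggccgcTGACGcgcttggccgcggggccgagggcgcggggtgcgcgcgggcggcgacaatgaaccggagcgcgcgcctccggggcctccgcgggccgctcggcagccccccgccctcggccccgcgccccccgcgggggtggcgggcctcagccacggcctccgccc
Nr4a1, chr15:101266596-101266895, plus strand: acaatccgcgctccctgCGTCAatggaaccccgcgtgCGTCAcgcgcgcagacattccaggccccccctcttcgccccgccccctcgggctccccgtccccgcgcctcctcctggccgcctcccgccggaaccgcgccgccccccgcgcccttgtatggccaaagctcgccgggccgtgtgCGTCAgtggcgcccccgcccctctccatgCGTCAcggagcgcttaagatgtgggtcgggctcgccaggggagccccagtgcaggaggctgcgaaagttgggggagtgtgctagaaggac
Fosb, chr7:19309996-19310295, minus strand: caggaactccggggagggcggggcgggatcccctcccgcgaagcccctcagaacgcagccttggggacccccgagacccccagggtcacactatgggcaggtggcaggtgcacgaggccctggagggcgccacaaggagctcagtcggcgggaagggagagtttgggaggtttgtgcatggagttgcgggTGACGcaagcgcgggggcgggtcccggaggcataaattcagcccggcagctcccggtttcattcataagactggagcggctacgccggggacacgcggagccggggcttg
The *Nr4a2* promoter held 2 matches on each strand, that of *Nr4a1* 4 on the other strand and that of *Fosb* 1. The 3 genes, all transcription factors, were at 11.7, 10.6, 39.6 and 14.1 CPM for *Nr4a2*, 20.9, 22.8, 59.2 and 9.99 CPM for *Nr4a1* and 5.81, 5.15, 13.9 and 3.66 CPM for *Fosb*.

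**Figure D5:**
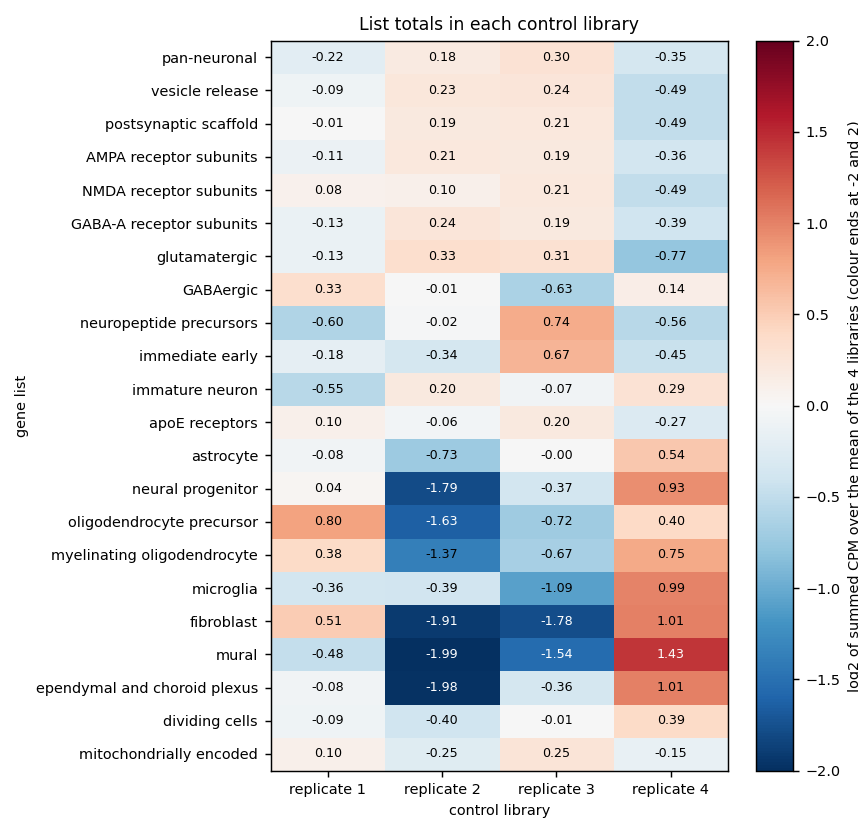
Summed level of 22 gene lists in each control library as log2 of its ratio to the mean of the 4 libraries. Red is above the mean and blue below. Replicate 4 is red for glial and other non-neuronal lists and blue for synaptic lists, replicate 2 is blue for the former, and replicate 3 is red for immediate early genes and peptide precursors.

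Most features differed little between the control libraries, and a smaller set differed several-fold. Of 9423 features with a mean of at least 10 CPM, the highest library was 1.37-fold above the lowest in the median, and 549 (5.83%) differed more than 3-fold. Among the 100 most variable features, 85 were highest in replicate 4 and 80 lowest in replicate 2. The 10 most variable features included 2 pseudogenes, *Gm11942* (26.8, 0.201, 2.86 and 51.2 CPM) and *Gm8399* (69.8, 15.6, 1.26 and 71.3 CPM). *C3*, the central complement component that reactive astrocytes make, was at 313, 11.98, 87.7 and 775 CPM. *Chil1* (22.1, 2.05, 9.41 and 113 CPM), *Steap4* (75.2, 5.03, 26.6 and 200.2 CPM) and *Lbp* (5.59, 1.17, 2.44 and 34.6 CPM), genes of inflammatory responses, followed the same order of libraries. So did *1500015O10Rik* at 40.9, 4.18, 18.2 and 129 CPM. *Acta2* and *Tagln* of contractile cells also belonged to the 10. *Grp*, the precursor of gastrin-releasing peptide, went another way at 0.727, 11.2, 67.0 and 2.88 CPM, with replicate 3 far above the rest.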

How the data were processed

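Total RNA of hippocampal cultures was depleted of ribosomal RNA (Ribo-Zero Gold), made into TruSeq libraries and sequenced on a NovaSeq instrument. Alignment to mm10 was done by the authors with STAR 2.5.0c, and HTSeq 0.6.0 gave a raw count for each of 48397 features in every library, which is what they deposited. The annotation and the strand setting used for counting were not given in the sources used here. The 5 summary lines of each file, which name no gene, were left out. Labels give the AraC concentration as 5 mmol/L, while the study's methods give a lower unit.

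Levels were computed as CPM with TMM factors (edgeR 4.0.16, R 4.3.3) from the 17038 features of all 16 libraries that passed a filter (count minimum 10, total minimum 15, minimum share 0.7), and described for the 4 control libraries only. Exon lengths were the union of exons in GENCODE M21 (GRCm38), matched by symbol for 46394 of 48397 features (95.9%). The level step was tested on simulated counts. The control libraries were numbered as in their labels, their depth ranged from 18569593 to 28482361 counts on genes, and intervals and floors cover counting error only.

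No test between groups was made. The members and the 48 gene lists (406 genes) were chosen with earlier results of these data known. All genes of lists of up to 8 genes could be named, and of longer lists the highest, the lowest and those that differed more than 3-fold, besides the 20 most abundant features, the 20 highest protein-coding genes per length and the 10 most variable features with a mean of at least 10 CPM. Further members of the lists were named for their role, and some genes of the lists, although counted in their totals, are not reported here. Promoter sequences came from RefSeq. Alternatives were plain CPM, TMM within the controls, totals without the most abundant features, the longest transcript as length, other detection limits and leaving out each library.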

Additional observations from a re-analysis of the deposited data

Results flagged for a closer look

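In 342 values (gene lists, gene ratios and named genes) the highest or the lowest of the 4 control libraries was tested for a gap to its nearest neighbour that exceeded Dixon's critical share of the whole range, and 30 values had such a gap. Chance gives about 1 in 20, and many of these genes share a library, so the list is a description of which cultures stood out.

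Replicate 3 stood above the others for *Bdnf* (472 CPM) and *Nr4a2* (39.6 CPM), genes that follow neuronal activity, and for the peptide precursors *Vgf* (919 CPM), *Penk* (17.4 CPM) and *Grp* (67.0 CPM). Of the 15 listed peptide precursors with a mean of at least 1 CPM, 7 were highest in replicate 3 and 3 lowest there, against 22.8 and 25.5% of all features. The same library was high for *Bok* (51.4 CPM) and *Chrna1* (31.1 CPM), and low for the adrenergic receptor list (49.4 CPM) and *Pdgfra* (0.418 CPM).

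Replicate 2 was high for the interneuron list (1488 CPM), the opioid receptor list (78.8 CPM) with *Oprl1* at 74.1 CPM and *Grin3a* (49.9 CPM), and low for *Glra2* (22.4 CPM). The interneuron list includes *Cnr1* and *Calb2*, both of which were highest in that library, and *Adora2a* was also high there at 0.844 CPM.

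Replicate 4 was low for the muscarinic receptor list (159.5 CPM), which its *Chrm1* level of 86.1 CPM carried. It was high for *Pnoc* (53.0 CPM), *Lbp* (34.6 CPM), *Ngfr* (28.9 CPM), *Hdc* (6.12 CPM), *Cx3cr1* (3.03 CPM), *Slc17a8* (1.73 CPM) and *Cdk1* (1.36 CPM). The other gaps were in genes with almost no reads, where a few counts set the value: *Glra1* (0.209 CPM), *Sim1* (0.105 CPM) and *Drd3* (0.0349 CPM) in replicate 3, *Gabra6* (0.136 CPM) and *mt-Nd4l* (0.0454 CPM) in replicate 1, and *Des* (0.0402 CPM) in replicate 2.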

How the results depend on the processing

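No paired analysis was possible because the description covers 1 group and rests on no test. List totals kept within the spread between libraries with plain CPM and with TMM factors from the 4 control libraries alone. Leaving the features above 1% of a library out of the total raised every list, and 6 lists by more than their SD: kainate receptors to 389.8 CPM, glycine receptors to 272 CPM, nicotinic receptors to 222 CPM, lipoprotein receptors to 1216 CPM, trophic receptors to 1250.4 CPM and chloride transporters to 456 CPM. Counting every feature with at least 1 read over the 4 libraries raised the number detected to 29770.

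Dividing by the longest transcript in place of all exons moved 8 of the 17 ratios. On the log2 scale *Tubb3* over *Gfap* turned to -0.062 and *Grin2a* over *Grin1* to -0.79. The others kept their direction: *Gad1* over *Gad2* at 1.90, *Gria1* over *Gria2* at 0.38, *Gria2* over *Gria3* at 2.60, *Grin2b* over *Grin2a* at 0.33, *Gabra5* over *Gabra2* at 0.37 and *Gabbr1* over *Gabbr2* at 1.32. Among the 17 pairs the direction of the mean therefore held, except for *Tubb3* over *Gfap* and *Grin2a* over *Grin1*, and the size of the ratio less so. Beyond these pairs, *Gria4* over *Gria3* and the lead of *Grin2b* over *Grin1* also turned, as did the order of some other neighbours within the lists.

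Leaving out each library in turn turned the ratios of *Tubb3* to *Gfap* (log2 from -0.035 to 0.97) and of *Prox1* to *Wfs1* (from -0.76 to 0.23), in both cases when replicate 2 was left out. No other ratio changed direction when a library was left out. Gene counts give no isoforms, the annotation and strand setting behind them were not given in the sources used here, and genes with few reads in 4 libraries are measured with large counting error.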
